A study of Saccharomyces cerevisiae with 7 samples.

Results

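The *asc1* library holds the 3’-ends of 5’-NGD fragments made from PGK1-SL in *ski2Δ* cells whose Asc1 carries R38D and K40E, and it was compared with the *dom34Δ* and *rps3* (R116A/R117A) libraries of the same reporter. These are 3 of the 7 libraries analysed here, 1 per strain and reporter, and they were taken by their labels. All strains are BY4741 with *SKI2* (YLR398C) deleted, grown in galactose and raffinose medium that keeps the reporter plasmid. PGK1-SL is a GAL1-driven copy of the glycolytic gene *PGK1* (YCR012W) with a stem loop (SL) at position 1040, and positions are those of the authors' reporter. Locus names are from the R64 assembly. In the strain list of the study all 3 *ski2Δ* strains carry HIS3 at *RPS3*, which is mutated only in the *rps3* strain. The *asc1* mutations are linked to LEU2, and *SKI2* and *DOM34* are replaced by KanMX. No otherwise wild-type library was analysed here.

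No-go decay (NGD) cuts an mRNA on which ribosomes have stalled, well upstream of the block. The 5’-fragment is normally degraded from its new 3’-end by the exosome with the helicase Ski2, so without Ski2 its end can be mapped. Asc1 (YMR116C), the yeast homologue of RACK1, sits on the head of the small subunit near the mRNA exit and is known for its part in ribosome quality control and in keeping the reading frame at stalls. R38D/K40E weakens its hold on the ribosome. Dom34 (YNL001W) rescues ribosomes stalled on or at the end of an mRNA, and Rps3 (YNL178W) lines the mRNA entry tunnel with the arginines that the *rps3* mutations replace.

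Positions 606 to 1040 were kept, which are the stem loop and the 434 nt upstream of it. They held 3306874 reads of *asc1*, 4846400 of *dom34Δ* and 2075836 of *rps3* cells, at least 99.57% of each library. All 435 positions had reads in each of the 3 libraries. Counts were converted to shares of these reads. Each library is a pool of RNA from at least 2 biological replicates and there is 1 per strain, so replicate error is unknown and no test was run. Intervals are 95% intervals for counting error only, and they treat each read as independent. Amplified reads are not independent molecules, so the intervals may be too narrow even for counting error. Differences in preparation between libraries are not in them. Sequences of the reporter are not shown here.

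The *asc1* profile lay far from that of *dom34Δ* cells and less far from that of *rps3* cells. The distance used is the share of reads that would have to lie elsewhere for 2 profiles to be equal. It was 51.8 percentage points between *asc1* and *dom34Δ* (51.7 to 51.9), 35.3 points between *asc1* and *rps3* (35.2 to 35.4) and 36.6 points between *rps3* and *dom34Δ*. These intervals are rough, because they treat the distance as a share of the library with fewer reads and leave out the error of the other. The *asc1* share was the highest of the 3 at 172 of 435 positions (39.5%) and the lowest at 165 (37.9%). Elsewhere it lay between them, with *rps3* on top at 64 positions and *dom34Δ* on top at 34.

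**Figure D1:**
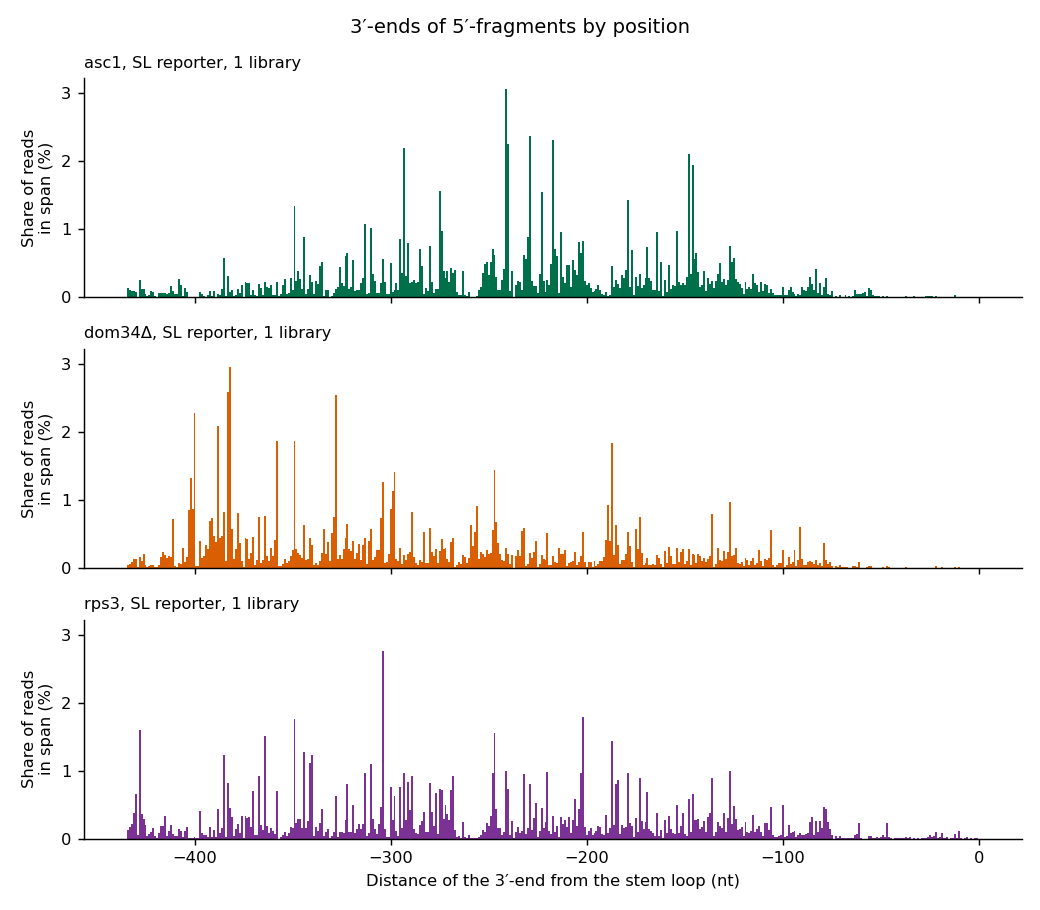
Share of the reads between positions 606 and 1040 (%, vertical axis) at each distance from the stem loop (nt, horizontal axis) for the *asc1*, *dom34Δ* and *rps3* libraries with the SL reporter, 1 library each. The highest *asc1* position is 241 nt upstream, that of *dom34Δ* 382 nt and that of *rps3* 304 nt.

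Counted in 30-nt windows from the stem loop, *asc1* reads were concentrated in 2 stretches. The first, 120 to 179 nt upstream, held 22.6% of the *asc1* reads against 11.4% in *dom34Δ* and 15.7% in *rps3* cells. The second, 210 to 299 nt upstream, held 40.1% against 23.7% and 27.7%. The window between them, 180 to 209 nt upstream, had 7.98% for *asc1*, 7.46% for *dom34Δ* and 10.4% for *rps3*. There *asc1* did not exceed both others. The study reports a predominant peak inside the first stretch for otherwise wild-type cells, and its loss in *rps3* and *dom34Δ* cells. For *asc1* cells it reports an additional predominant peak, which falls in the second stretch. A share above these mutants is therefore not the same as a change from otherwise wild-type cells. At 300 nt and farther lay 22.4% of the *asc1* reads, compared with 51.3% of those of *dom34Δ* and 37.3% of those of *rps3* cells.

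The window with the most *asc1* reads was 210 to 239 nt upstream, with 15.1%. It held 5.60% of the *dom34Δ* and 7.55% of the *rps3* reads, a ratio of 2.70 (2.69 to 2.71) to the first and 2.00 (1.99 to 2.01) to the second. It was the only one of 14 full windows in which *asc1* was at least 1.5 times both others. With windows moved by 15 nt there were 3 such windows. The window at 120 to 149 nt came close, with 12.7% for *asc1*, 5.86% for *dom34Δ* and 8.52% for *rps3*, ratios of 2.17 and 1.495 (1.487 to 1.503 for the latter).

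The windows in which *asc1* was lowest by as much were the 2 between 360 and 419 nt upstream. At 360 to 389 nt lay 3.67% of the *asc1*, 16.4% of the *dom34Δ* and 9.63% of the *rps3* reads, so *dom34Δ* was 4.47 times and *rps3* 2.62 times as high as *asc1*. At 390 to 419 nt lay 1.89%, 11.2% and 2.89%, with *dom34Δ* 5.91 times and *rps3* 1.53 times as high. The second of these losses was therefore largely shared by *rps3*. With counts capped at the 95th percentile of each library, *rps3* was 1.41 times as high as *asc1* at 390 to 419 nt and 2.20 times at 360 to 389 nt, so only the latter window stayed past 1.5 times. The shortest fragments, in the 15 nt next to the primer, made up 1.31% of the *asc1*, 1.15% of the *dom34Δ* and 4.48% of the *rps3* reads. In the 120 nt next to the stem loop *asc1* (6.98%) lay between *dom34Δ* (6.11%) and *rps3* (8.89%).

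**Figure D2:**
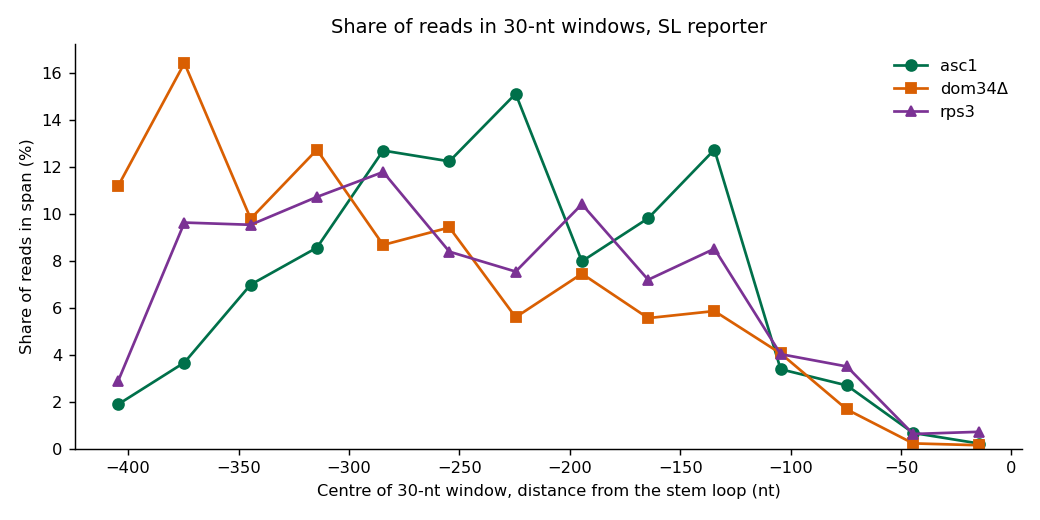
Share of the reads of the span (%, vertical axis) in each full 30-nt window against the distance of its centre from the stem loop (nt, horizontal axis), 1 line per library. *asc1* stands above both others at 30 to 59 nt, from 120 to 179 nt and from 210 to 299 nt. It stands below both at 90 to 119 nt and from 300 to 419 nt.

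Single positions were then sorted into what was particular to *asc1* among the SL libraries and what *asc1* shared with *rps3*. Of 435 positions, 397 had a mean share of at least 0.01% over the 3 libraries. The *asc1* share was at least 2 times that of *dom34Δ* at 133 of them (33.5%) and at most 1/2 of it at 108 (27.2%). Against *rps3* the same counts were 81 (20.4%) and 97 (24.4%), and for *rps3* against *dom34Δ* they were 115 (29.0%) and 78 (19.6%). The 3 comparisons share libraries, so their counts are not independent.

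At 61 positions (15.4% of those considered) *asc1* was at least 2 times as high as both others. Together they made up 36.5% of the reads for *asc1*, 5.60% for *dom34Δ* and 11.6% for *rps3*, and 25 of them lay between 200 and 300 nt upstream, 33 nearer and 3 farther. At 65 positions (16.4%) *asc1* was at most 1/2 of both others. These held 6.44% of the *asc1*, 41.1% of the *dom34Δ* and 24.3% of the *rps3* reads, and 35 of them lay 300 nt or farther upstream. At 50 positions (12.6%) *asc1* and *rps3* were both at least 2 times as high as *dom34Δ* and within 2 times of each other. These held 14.4% of the *asc1*, 12.7% of the *rps3* and 4.24% of the *dom34Δ* reads. At 30 positions (7.56%) *asc1* and *rps3* were both at most 1/2 of *dom34Δ* and within 2 times of each other. They held 1.64%, 1.99% and 11.9% of the reads in the same order.

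Both kinds of shared positions are read against the same *dom34Δ* library, so a position that is high or low in that library alone falls among them. The classes also depend on the 2-fold rule. Summed over all positions, *asc1* lost 51.8 points of share against *dom34Δ*, and 34.3 of these (66.3%) were lost by *rps3* as well. Of the 51.8 points gained, 18.8 (36.3%) were gained by *rps3* as well. At the 65 lower positions *rps3* too held less than *dom34Δ*, 24.3% against 41.1%. The gains and losses of *asc1* also differed in where they lay. The 61 higher positions had a median distance of 165 nt from the stem loop and the 65 lower ones of 306 nt. The 50 shared gains had a median of 182.5 nt and the 30 shared losses of 330 nt. For comparison, the 191 positions considered that fell in none of these classes had a median of 239 nt. Of these 191, 46 lay between 200 and 300 nt upstream, 78 nearer and 67 farther.

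**Figure D3:**
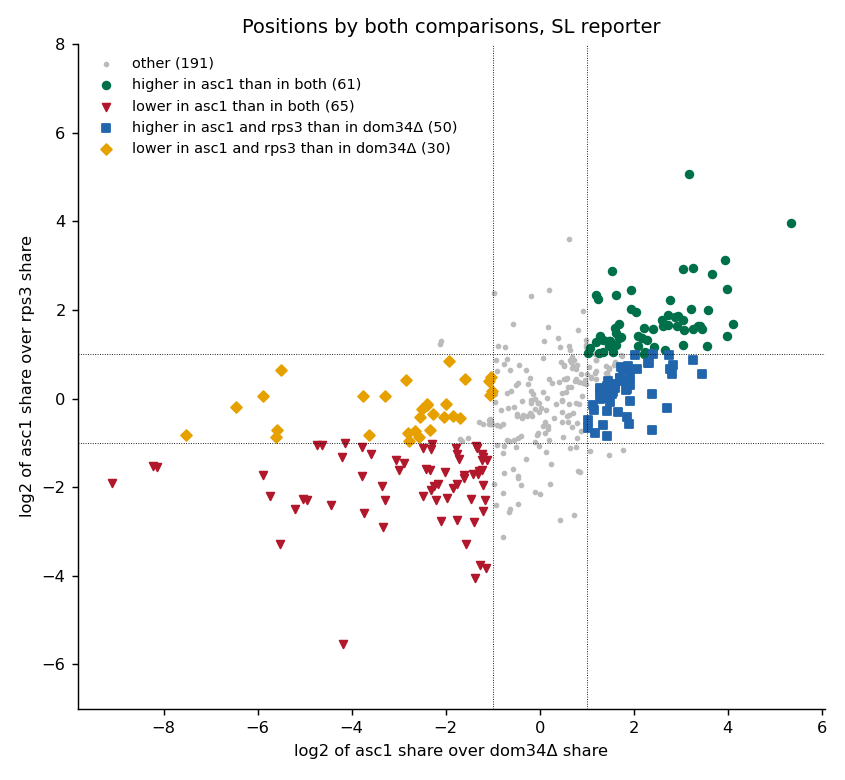
Each point is 1 of the 397 positions with a mean share of at least 0.01%, with log2 of the *asc1* share over the *dom34Δ* share on the horizontal axis and log2 of the *asc1* share over the *rps3* share on the vertical axis, and dotted lines at 2-fold. The 61 and 65 positions at the upper right and lower left differ from both libraries in the same direction, and the 50 and 30 others marked in colour differ from *dom34Δ* as *rps3* does.

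The highest position of *asc1* lay 241 nt upstream of the stem loop (position 799). Its share was 3.06% for *asc1* (3.04 to 3.08), 0.297% for *dom34Δ* and 0.991% for *rps3*. The *asc1* share was 10.3 times (10.1 to 10.5) that of *dom34Δ* and 3.09 times (3.04 to 3.14) that of *rps3*. The next 2 positions of *asc1* followed it at steps of 12 nt, at 229 and 217 nt. That at 229 nt held 2.37% for *asc1*, 0.218% for *dom34Δ* and 0.802% for *rps3*, and that at 217 nt held 2.31%, 0.182% and 0.329%. Of these 3 the position at 217 nt had the largest ratio to *rps3*, 7.00 (6.83 to 7.18), and its neighbours at 218 and 216 nt were 7.73 and 7.55 times as high in *asc1* as in *rps3* cells.

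Other large gains lay next to these, farther upstream and nearer the stem loop. The end at 240 nt, next to the highest one, held 2.25% for *asc1*, 0.213% for *dom34Δ* and 0.725% for *rps3*. That at 293 nt held 2.19%, 0.187% and 0.965%, so *rps3* was also 5.16 times as high as *dom34Δ* there. Against *rps3* the fifth largest gain was at 148 nt, with 2.10% for *asc1*, 0.284% for *dom34Δ* and 0.590% for *rps3*. Of the 5 positions with the largest folds over both libraries, 2 were low ones near the stem loop. At 59 nt *asc1* had 1899 reads, *dom34Δ* 69 and *rps3* 77, and at 58 nt they had 2445, 395 and 46. The other 3 were at 231, 218 and 216 nt, where the *asc1* share was 0.570%, 0.496% and 0.716%. At 231 nt it was 15.3 times that of *dom34Δ* and 8.77 times that of *rps3*.

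The largest losses of *asc1* against *dom34Δ* were at the highest positions of *dom34Δ* cells. At 382 nt *dom34Δ* had 2.95%, *rps3* 0.447% and *asc1* 0.0801%, and the position ranked 266 of 435 in *asc1*. At 383 nt they had 2.59%, 0.814% and 0.313%, at 328 nt 2.55%, 0.627% and 0.118%, and at 388 nt 2.08%, 0.438% and 0.0450%. At these 4 positions *rps3* lay between the other two. The position at 400 nt was nearly empty in both ribosomal mutants, with 110758 reads in *dom34Δ*, 490 in *rps3* and 266 in *asc1* cells. In shares these were 2.29%, 0.0236% and 0.00804%, so *rps3* was 2.93 times as high as *asc1* there.

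Against *rps3* the largest loss was at 304 nt, the highest position of *rps3* cells, with 2.76% for *rps3*, 1.26% for *dom34Δ* and 0.560% for *asc1*. It was followed by 428 nt (1.60%, 0.158% and 0.260% in the same order) and 364 nt (1.51%, 0.766% and 0.227%). At 340 nt *rps3* had 1.24% and *asc1* 0.219%, and at 187 nt 1.44% and 0.454%. The positions at 428 and 340 nt were high in *rps3* alone, since *asc1* and *dom34Δ* were within 2 times of each other there.

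The shared gains of *asc1* and *rps3* were spread out along the span, and no single one was among the 10 highest positions of *asc1*. The highest was at 313 nt, with 1.08% in *asc1*, 0.969% in *rps3* and 0.444% in *dom34Δ* cells, and the one with the largest ratio of *asc1* to *dom34Δ* among the 5 highest, 9.62 (9.31 to 9.94), was at 204 nt, with 0.813%, 0.444% and 0.0846%. The shared losses included positions that were nearly empty in both. At 256 nt *dom34Δ* had 0.918% and *asc1* and *rps3* 0.0156% and 0.0150%, so that *dom34Δ* was 58.8 times as high as *asc1* and 61.1 times as high as *rps3*. At 403 nt *dom34Δ* had 41583 reads, *asc1* 154 and *rps3* 170, ratios of shares of 184 and 105. At 391 nt the shares were 0.743% in *dom34Δ*, 0.0153% in *asc1* and 0.0280% in *rps3* cells.

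The libraries of the codon-repeat reporters, with 12 CGA or 12 AAA codons in *dom34Δ* and *rps3* cells, hold the same PGK1 sequence more than 100 nt upstream of the SL position. The repeats lie at position 950, 90 nt upstream of the SL position, so a given position is that much nearer to the stall in these reporters, and what the reporter and the strain each add cannot be told apart in comparisons with *asc1*. Over these 334 positions, with shares taken of their reads, they show how far libraries of 1 strain can lie apart, although the reporter differs as well. The 6 pairs of 1 strain with different reporters had distances of 18.9 to 40.2 points. That of *asc1* and *rps3* with SL, 35.2 points, was inside this range, and that of *asc1* and *dom34Δ* with SL, 52.2 points, was above it. The *dom34Δ* SL library lay 36.6 to 54.2 points from the other 6, and *asc1* 30.3 to 52.2 points. *asc1* with SL was 30.3 and 33.7 points from *rps3* with (AAA)12 and (CGA)12, and 36.4 and 35.6 points from *dom34Δ* with the same reporters. It was no closer to *rps3* with its own reporter than to *rps3* with the codon repeats.

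The losses that *asc1* shared with *rps3* were also seen between *rps3* and *dom34Δ* cells with the other reporters. Of the 30 positions, 28 lay in this stretch, and *rps3* was at most 1/2 of *dom34Δ* at 21 of them with (CGA)12 and at 19 with (AAA)12, that is 75.0% and 67.9% against 26.7% and 21.3% of all 333 positions that passed the filter. At 256 nt the *dom34Δ* libraries held 0.954% with SL, 0.183% with (CGA)12 and 0.119% with (AAA)12, and the *rps3* libraries at most 0.0195% with any reporter. The count was also above the background at the positions where *asc1* was at most 1/2 of both SL libraries, with 28 of 55 (50.9%) with (CGA)12 and 25 (45.5%) with (AAA)12, so it was not particular to the shared losses. Of the 35 shared gains in the stretch, *rps3* was at least 2 times *dom34Δ* at 8 with (CGA)12 and at 5 with (AAA)12, 22.9% and 14.3% against 10.8% and 5.11% of all. At the 50 positions where *asc1* was at least 2 times both SL libraries it was so at 14 (28.0%) and 8 (16.0%), so shared gains did not stand out from these.

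At some of the positions where *asc1* exceeded both SL libraries, a codon-repeat library was as high. Of the 50 in this stretch, the *asc1* share was reached or passed by a codon-repeat library at 18, compared with 12 of the 35 shared gains. No count over all 333 positions is given. At 19 of the 50 *asc1* was at least 2 times as high as all 6 other libraries, and these held 17.3% of its reads there. They are also all such positions among the 333, since each must exceed both SL libraries 2-fold. The position at 148 nt was one of the 18, with 2.20% in *asc1*, 5.15% in *rps3* with (CGA)12 and 3.04% in *rps3* with (AAA)12. That at 217 nt was one of the 19, with 2.41% in *asc1* and 0.189% to 0.377% in the 6 others. So was that at 241 nt, but by little, with 3.21% in *asc1* and 1.55% in *rps3* with (AAA)12. Fewer of the losses held against all libraries. Of the 55 positions in this stretch at which *asc1* was at most 1/2 of both SL libraries, it was the lowest of 7 libraries at 32. It was at most 1/2 of all 6 others at 6, which is 6 of all 333, compared with 26 for *dom34Δ* with SL. The 55 positions held 6.41% of the *asc1* reads there, and 24.5% and 41.2% in *rps3* and *dom34Δ* with SL. With the codon repeats (CGA first) they held 11.0% and 13.2% in *rps3* and 20.3% and 21.9% in *dom34Δ*. At 382 nt, the highest position of *dom34Δ* with SL (3.07% here), *dom34Δ* had 0.137% with (CGA)12 and 0.185% with (AAA)12. By the count against all other libraries, *dom34Δ* with SL was at least 2 times all others at 34 of the 333 positions and *rps3* with SL at 13. Each codon-repeat library was so at 3 at most. Exceeding all other libraries was therefore not confined to *asc1*. The counts are not on the same footing, because *dom34Δ* and *rps3* must exceed other libraries of their own strain and *asc1* has none.

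*asc1* also differed in the distribution of ends within groups of 3 neighbouring nucleotides. The remainder of the position divided by 3 marks one of 3 places relative to the codons, but the sources used here do not say where the numbering starts, so which codon base a remainder stands for is not known. In *asc1* cells 39.7% of the reads were at remainder 1, compared with 52.2% in *dom34Δ* and 51.4% in *rps3* cells, which is 12.4 and 11.7 percentage points less. Remainder 2 held 27.9% for *asc1*, 19.6% for *dom34Δ* and 18.3% for *rps3*. Remainder 0 held 32.3%, 28.2% and 30.3%. The interval of the *asc1* share at remainder 1 was 39.68% to 39.78%, and that of *rps3*, the shallowest of the 3 libraries, 51.36% to 51.49%. For every 100 reads at remainder 1 there were 70.3 at remainder 2 for *asc1*, 37.5 for *dom34Δ* and 35.6 for *rps3*.

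The difference was present along most of the span. The remainder 2 share of *asc1* was above both others in 14 of 14 windows of 30 nt, and its remainder 1 share was below both in 13. The exception was the window at 30 to 59 nt, with 37.5% at remainder 1 for *asc1*, 41.7% for *dom34Δ* and 31.6% for *rps3*, and this window held 0.676% of the *asc1* reads. Remainder 1 led all 14 windows of *dom34Δ*, 12 of *rps3* and 6 of *asc1*, whose other windows were led by remainder 0 (4) and remainder 2 (4). The *asc1* share at remainder 1 ranged from 23.8% at 60 to 89 nt to 54.0% at 210 to 239 nt, the window with most of its reads, where *dom34Δ* had 55.7% and *rps3* 63.3%. In the shorter window of 15 nt next to the primer the pattern was absent, with 30.3%, 31.3% and 31.2% at remainder 1 (*asc1*, *dom34Δ*, *rps3*) and 21.6%, 31.5% and 14.8% at remainder 2.

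**Figure D4:**
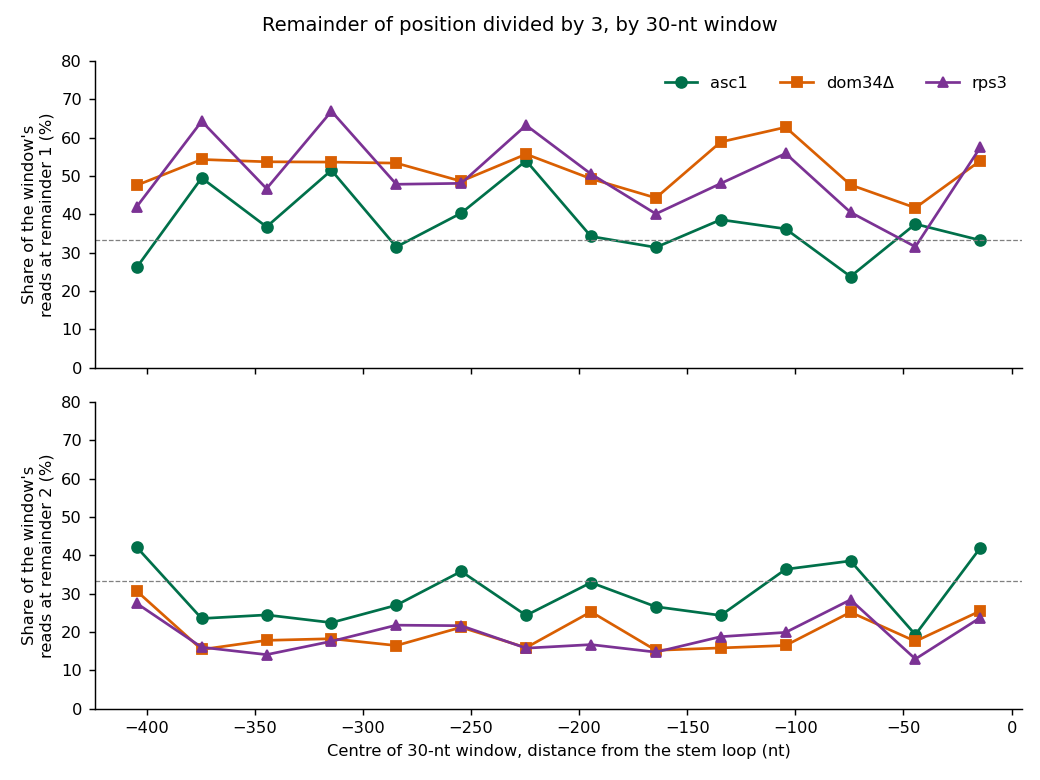
Share of each window's reads at remainder 1 (top) and remainder 2 (bottom) of the position divided by 3 (%, vertical axes) against the distance of the centre of the 30-nt window from the stem loop (nt), with a dashed line at an even share. The *asc1* line is below both others in 13 of 14 windows in the upper panel and above both in 14 of 14 in the lower one.

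It did not rest on a few high positions. With each of the 145 groups of 3 positions given the same weight, remainder 1 held 36.1% for *asc1*, 47.0% for *dom34Δ* and 46.2% for *rps3*. Remainder 1 was the highest of the 3 positions in 56 groups of *asc1*, 89 of *dom34Δ* and 84 of *rps3*. The share at remainder 1 was lower in *asc1* than in both others in 93 of 145 groups (64.1%) and higher than in both in 11. Among the 50 highest positions of each library, 22 were at remainder 1 for *asc1*, 30 for *dom34Δ* and 33 for *rps3*, and 14, 7 and 3 were at remainder 2.

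The 2 kinds of *asc1* positions had opposite remainders. Of the 61 positions at which *asc1* was at least 2 times both others, 10 were at remainder 1, 29 at remainder 2 and 22 at remainder 0, whereas the 397 positions considered were split 135, 130 and 132. Of the 65 at which *asc1* was at most 1/2 of both, 35 were at remainder 1, 10 at remainder 2 and 20 at remainder 0. These counts restate the shift in shares and are not separate evidence. The 3 highest *asc1* positions, at 241, 229 and 217 nt, were nevertheless all at remainder 1.

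The shift was also seen against the 6 other libraries over the stretch they share. Remainder 1 held 40.2% of the *asc1* reads and 44.8% to 51.9% of the reads of the others, and remainder 2 held 27.5% in *asc1* and 17.9% to 21.2% in the others. The gap between *asc1* and the nearest other library at remainder 2, 6.38 points, was larger than the range of the 6 others, 3.22 points. At remainder 1 the gap, 4.60 points to *rps3* with (AAA)12, was smaller than their range of 7.08 points. Remainder 0 held 32.2% in *asc1*, inside the 28.5% to 34.4% of the others. *rps3* and *dom34Δ* with SL, at 51.7% and 51.9%, were close to each other at remainder 1, so with SL the shift was not shared by *rps3*. With the codon repeats *rps3* was below *dom34Δ* at remainder 1, with 45.5% against 47.5% for (CGA)12 and 44.8% against 48.6% for (AAA)12. At remainder 2 it was slightly above, with 20.2% against 19.8% and 21.2% against 20.4%. Whether the shift in *asc1* goes with the *asc1* mutations or with the preparation of this single library cannot be told apart.

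**Figure D5:**
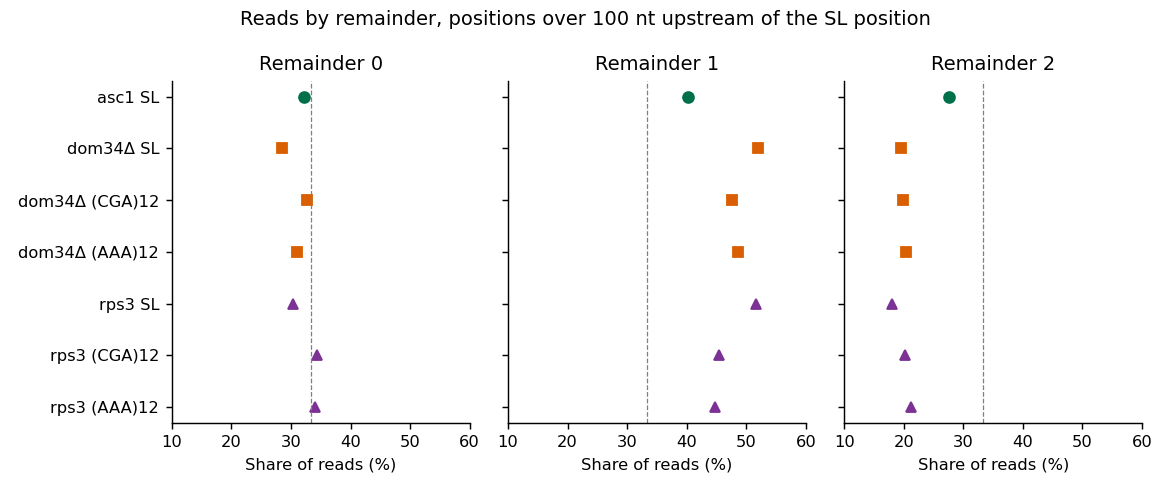
Share of the reads more than 100 nt upstream of the SL position (%, horizontal axes) at each remainder of the position divided by 3, 1 point per library, with a dashed line at an even share. *asc1* is below the 6 other libraries at remainder 1, above them at remainder 2 and among them at remainder 0.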

How the data were processed

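Per the labels and the methods, total RNA was ligated at its 3’-ends to an adaptor, and cDNA was amplified with a primer at position 585 of PGK1. HiSeq reads were trimmed (cutadapt 1.12) and aligned by the authors to their reporter sequence with Novoalign. The submitters' notes list SAMtools 1.13 and bedtools without a role. How duplicate or ambiguous reads were treated is not stated in those sources. What the authors deposited are raw counts, the number of read ends at each position, and unlisted positions were taken as 0. Products ending far from the stem loop are shorter, so a preference for short products in amplification or sequencing would raise their counts.

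Shares were taken over positions 606 to 1040 and compared by position (2-fold, mean share of at least 0.01%), by 30-nt window and by remainder. Intervals are Wilson intervals for shares and log-normal ones for ratios. Those of distances are Wilson intervals too, with the distance treated as a share of the library with fewer reads. With 1 library per condition no test was run. The positions named are the highest of each library, the 5 largest gains and losses against each library, and the 5 highest of each class. The 5 largest folds over both were named too. Libraries, span and statistics were chosen with earlier results of these data known. The code for distances, classes, windows and remainders was run on simulated profiles with planted changes above the 2-fold threshold and counting noise only. Differences between libraries were not simulated, so this checks the code and not the results. Alternatives were another fold, filter, span, window, capping, smoothing and weighting. Python 3.11.15, NumPy 2.4.6, SciPy 1.17.1, pandas 2.3.3 and matplotlib 3.10.9 were used.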

Additional observations from a re-analysis of the deposited data

Results flagged for a closer look

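Reads outside positions 606 to 1040 entered no comparison and were found in all 3 SL libraries above the 3 reads that a count of 0 allows. Past the stem loop there were 2071 reads for *asc1*, 20532 for *dom34Δ* and 6915 for *rps3*. Before position 606 the counts were 14, 179 and 674. No library without a stall was analysed, so there is no background for them.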

How the results depend on the processing

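Every value rests on 1 library per condition. Depth limits little at the positions kept, since 3 reads are at most 0.000145% of the span in the SL libraries and 0.000495% in the codon-repeat ones. What a second library of each strain would show is not known. No paired analysis was possible because each condition has 1 library. Of 59 alternative values, 27 stayed within the counting interval or within 1.5 times the count, 32 moved beyond it and 0 changed sign. Only the differences in share at remainder 1 could change sign, because distances, counts and shares are never negative. The causes of the moves were not tested, except that fewer positions were counted within 300 nt.

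The distance of *asc1* to *dom34Δ* was 44.1 points with capped counts, 50.7 without the highest position of each library, 47.3 within 300 nt of the stem loop and 49.4 after smoothing over 5 points. That to *rps3* was 28.7, 34.3, 34.0 and 33.8, so *rps3* was the nearer one each time. Positions higher in *asc1* than in both others numbered 104 at 1.5-fold, 27 at 3-fold and 37 within 300 nt, and those lower than both 30 at 3-fold. Shared gains numbered 22 at 3-fold and 24 within 300 nt, and shared losses 16 within 300 nt. Windows with *asc1* above both numbered 3 when moved by 15 nt and 4 at 1.2-fold. Windows below both numbered 4 at 1.2-fold, 1 at 2-fold and 1 with capped counts.

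The *asc1* share at remainder 1 was 36.2% with capped counts, 37.4% without the highest position, 38.5% within 300 nt and 36.1% with equal weight for each group of 3. The difference from *dom34Δ* was -11.04 points with capped counts, -12.9 within 300 nt and -10.9 with equal weight, and that from *rps3* was -12.6, -11.9 (without the highest position), -10.3 and -10.1. The median distance of *asc1* to the 6 other libraries was 35.4 points, and 29.6 with capped counts, an alternative chosen after seeing the data.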
